A study of Mus musculus with 2 samples.

Results

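The 8 genes described here are 3 receptor systems of mast cells, macrophages and connective tissue, followed across the cell classes of colonies grown from the mouse aorta. The receptor genes are Kit, Il1rl1 (which encodes ST2), Il1rap (the co-receptor that ST2 shares with other receptors of its family) and Csf1r. The ligand genes are Kitl (stem cell factor) for Kit, Il33 for ST2, and Csf1 and Il34 for the receptor that Csf1r encodes. Members were chosen by gene symbol alone, with no measured value in the rule, and all 8 were found among the 32285 genes of the deposited matrix.

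The study grew colonies from aortic cells of C57BL/6J mice and profiled single cells of the colonies, and the library analysed here is 1 droplet library labelled as CFU-M, the macrophage colony-forming unit. Per the labels, aortas of 2 male mice aged 12 weeks were freed of surrounding fat and digested with an enzyme mix, and the cells were kept in methylcellulose, a gel-like colony medium, for 14 days. Colonies of the macrophage type were then picked and broken up, viable cells were sorted with the dye DAPI, and suspensions were marked with lipid-anchored DNA tags (MULTI-seq), pooled and run on a 10x Genomics 3′ kit. The labels name no genetic change or added agent, do not say what the colony medium contained, and pool both mice.

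One library with no replicate gives no test between classes, so every interval below is a 95% interval for counting error only and no p-value is given. The matrix held 593248944 gene UMIs (unique molecular identifiers, each marking 1 captured RNA molecule) in 34813 barcodes with no repeated barcode, with 13116 in the median barcode and between 501 and 243243 in each. It also held counts of 3 tags named Cafum, Matrigel and Macrophages, and the labels do not say which suspension a tag marked. The RNA went against the label of male mice in part: Xist, the RNA of the inactive X chromosome, was at 378, 351 and 708 CPM in the mast, macrophage and fibroblast classes described below, beside 18.5, 54.4 and 31.1 CPM of the Y-linked Ddx3y. CPM is UMIs of a gene per 1000000 gene UMIs, summed over the cells named.

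Kit is a receptor tyrosine kinase of class III, the group that also holds the receptor for macrophage colony-stimulating factor encoded by Csf1r, and mast cells depend on Kit and its ligand for growth and survival. ST2 and the co-receptor of Il1rap together bind IL-33, a cytokine stored in the nucleus of stromal and barrier cells and released on damage, and pass the signal on through Myd88. Macrophages depend on the Csf1r receptor, and connective tissue cells are a known source of its ligand CSF1. Kitl and Csf1 give membrane-bound and soluble proteins, Il1rl1 gives a membrane receptor and a soluble decoy, and counts of 3′ ends summed per gene do not separate these forms.

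Upstream DNA of the genes that varied together among mast cells (Kit, Il1rl1 and Csf1, described below) is shown to place them in the genome. Coordinates are of GRCm38, in the GENCODE M21 annotation, which held 32235 of the matrix's 32285 gene identifiers. Kit (ENSMUSG00000005672) spans chr5:75574916-75656722 on the plus strand and Il1rl1 (ENSMUSG00000026069) spans chr1:40429570-40465415 on the plus strand. Csf1 (ENSMUSG00000014599) spans chr3:107741048-107760469 on the minus strand. Kitl lies at chr10:100015630-100100416, Il33 at chr19:29925114-29960718 and Il1rap at chr16:26581704-26730117, each on the plus strand, and Il34 lies at chr8:110741829-110805924 on the minus strand. On the opposite strand, Gm20319 overlaps Il1rap, Hmgxb3 overlaps Csf1r, and Gm15894 and Gm15895 overlap Il34, and whether the counting used strand is not given in the sources used here. RefSeq promoters (GRCm38.p6) were matched for 6 of the 8 genes in 9 entries, each scanned over the 250 bases before the start for 3 short motifs on both strands. The motifs were AGATAA or TGATAA (bound by GATA factors), GAGGAA (bound by PU.1) and CATGTG or CACATG (an E-box bound by MITF). Capitals mark the matches, sequences read 5′ to 3′ on the gene's strand, and bases in an annotated exon of the gene were left out.

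Kit, chr5:75574737-75574915: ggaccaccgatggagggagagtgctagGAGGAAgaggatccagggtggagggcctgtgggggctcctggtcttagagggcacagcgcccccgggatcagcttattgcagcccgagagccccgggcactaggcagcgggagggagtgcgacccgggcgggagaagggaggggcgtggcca

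Il1rl1 upstream start, chr1:40429320-40429569: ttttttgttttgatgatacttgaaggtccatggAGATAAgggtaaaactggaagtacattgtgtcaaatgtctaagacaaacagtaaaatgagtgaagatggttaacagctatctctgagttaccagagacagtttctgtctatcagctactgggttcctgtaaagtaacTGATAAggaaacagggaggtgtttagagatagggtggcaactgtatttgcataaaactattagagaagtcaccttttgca

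Il1rl1 downstream start, chr1:40439379-40439626: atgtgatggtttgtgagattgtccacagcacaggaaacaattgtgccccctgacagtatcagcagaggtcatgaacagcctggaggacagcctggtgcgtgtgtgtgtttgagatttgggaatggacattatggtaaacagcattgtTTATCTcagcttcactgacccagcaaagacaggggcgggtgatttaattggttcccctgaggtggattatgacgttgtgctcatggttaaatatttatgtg

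Csf1, chr3:107760470-107760719: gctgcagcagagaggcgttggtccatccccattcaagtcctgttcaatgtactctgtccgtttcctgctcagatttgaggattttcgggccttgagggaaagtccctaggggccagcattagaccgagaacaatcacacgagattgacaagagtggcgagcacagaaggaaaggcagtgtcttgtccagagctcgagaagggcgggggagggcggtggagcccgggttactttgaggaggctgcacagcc

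The upstream start of Il1rl1 had 2 GATA matches, beginning 217 and 80 bases before the start, and its downstream start, which lies inside the gene before an annotated exon, had 1 match that begins 103 bases before the start and reads TTATCT on this strand. Of all 32851 promoters of this length, 16.6% held a GATA match. Kit had no GATA match and 1 match of GAGGAA, a motif found in 23.3% of promoters. No entry of the 6 genes held the E-box, which 12.3% of promoters held, and Csf1, Kitl, Il33 and Il1rap held none of the 3 motifs. A match describes letters only.

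After filters and removal of called doublets, 29285 cells were left and fell into 12 clusters, built without the 8 genes and the pathway lists so that their levels could not shape the clusters. Mast cell-like clusters held 21295 cells (72.7%), the fibroblast-like cluster 5100 (17.4%) and the macrophage-like cluster 2527 (8.63%), and 363 cells (1.24%) were in none of these, which are called the mast, macrophage and fibroblast classes from here on. The names were assigned from marker lists with a cut of 50 CPM. A class's own markers at 50 CPM are therefore no independent check of its name. All 7 mast markers reached 50 CPM in the mast class, 7 of 8 macrophage markers in the macrophage class and all 7 fibroblast markers in the fibroblast class, while no macrophage marker did so in the mast or fibroblast class. Of the fibroblast markers, 2 did so in the mast class and 3 in the macrophage class. Mast markers were present in every class: the 7 summed to 60704 CPM in the mast class, 18601 CPM in the macrophage class and 7950 CPM in the fibroblast class. The class levels of the 8 genes were set beside that amount, but levels in clusters, sub-clusters, tag groups and pathway lists were not.

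A second clustering within the macrophage and fibroblast classes placed much of this RNA. One macrophage sub-cluster (659 cells) and 2 fibroblast sub-clusters (1523 and 135 cells) had a marker of another class among their 10 leading genes and are called mixed below. In the median cell of the mixed macrophage sub-cluster, the Cafum tag had 2342 UMIs and the Macrophages tag 2373, against backgrounds of 1457 and 492. Without the mixed sub-clusters, 1868 cells of the macrophage class and 3442 of the fibroblast class remained. Cells were also restricted to the single tag that was most frequent in each class: Cafum in 15884 cells of the mast class, Macrophages in 1859 cells of the macrophage class and Matrigel in 2508 cells of the fibroblast class. Each member was highest in the same class under all of these choices of cells.

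Kit and Il1rl1 were highest in the mast class, Csf1r and Kitl in the macrophage class, and Il33, Csf1, Il1rap and Il34 in the fibroblast class. A gene was called for a class at 10 CPM or more and at least 2-fold above both other classes. Of 10011 genes tested, 6.88% were called for the mast class, 10.3% for the macrophage class and 14.7% for the fibroblast class. Of the 8 genes, 2 were called for the mast class (Kit and Il1rl1), 1 for the macrophage class (Csf1r) and 2 for the fibroblast class (Il33 and Csf1). Kitl missed the fold at 1.87-fold over the next class and Il1rap at 1.74-fold, and Il34 did not reach 10 CPM in any class. For each of the 8 genes, the counting intervals of the 3 classes did not overlap. The plot of levels by class shows all 8 genes with each choice of cells.

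**Figure D1:**
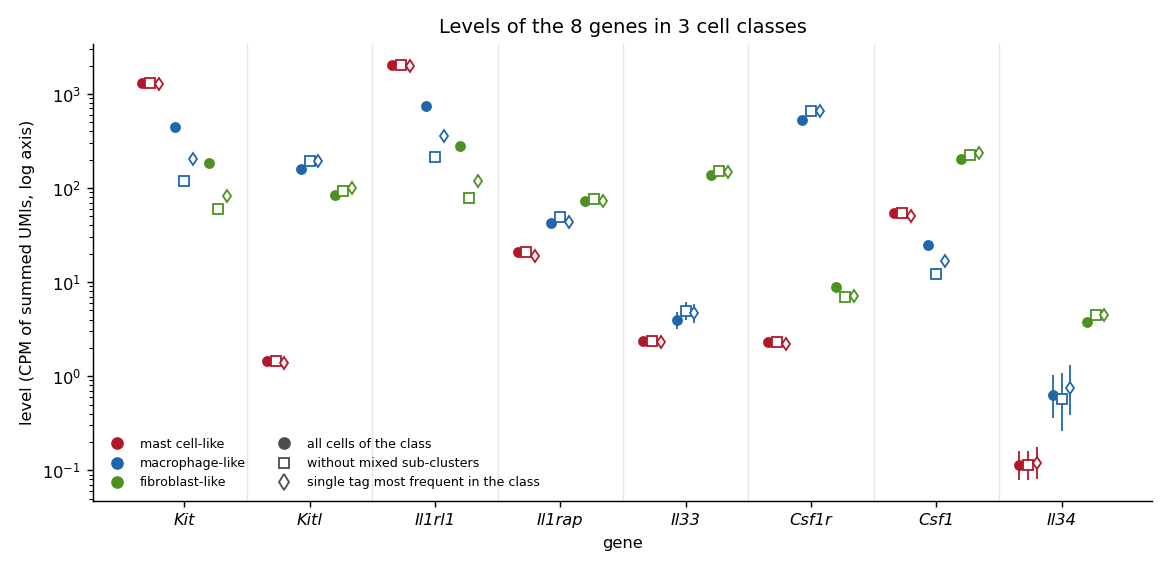
Levels of the 8 genes (x axis) in CPM of summed UMIs (y axis, log scale) in mast (red), macrophage (blue) and fibroblast (green) cells of 1 library. Filled circles are all cells of a class, squares the cells without mixed sub-clusters and diamonds the cells with the most frequent single tag, with exact Poisson 95% intervals; Kit and Il1rl1 drop in the macrophage and fibroblast classes when mixed sub-clusters are left out, while in the class where each is highest Kitl rises from 158 to 195 CPM, Csf1r from 526 to 659 CPM and Il33 from 139 to 152 CPM.

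For each class, the level that RNA of the other 2 classes would give was computed from their markers: a marker's CPM in the class over its CPM in its own class gives the share carried over, and the lowest and highest such share give a range. In the macrophage class the 7 mast markers were carried over at 0.272 to 0.352 of their level in the mast class, and in the fibroblast class at 0.120 to 0.141. In the mast class, macrophage markers were at 0.00282 to 0.00652 and fibroblast markers at 0.0140 to 0.0266 of their own class. Of the 24 combinations of gene and class, 14 lay above the range with their whole counting interval, which is what above means here. Because the shares are small, each gene lay above the range in its highest class by construction. Only the other combinations could fall either way, and values given below for a gene's highest class are description only. The plot of measured and expected levels shows each combination.

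**Figure D2:**
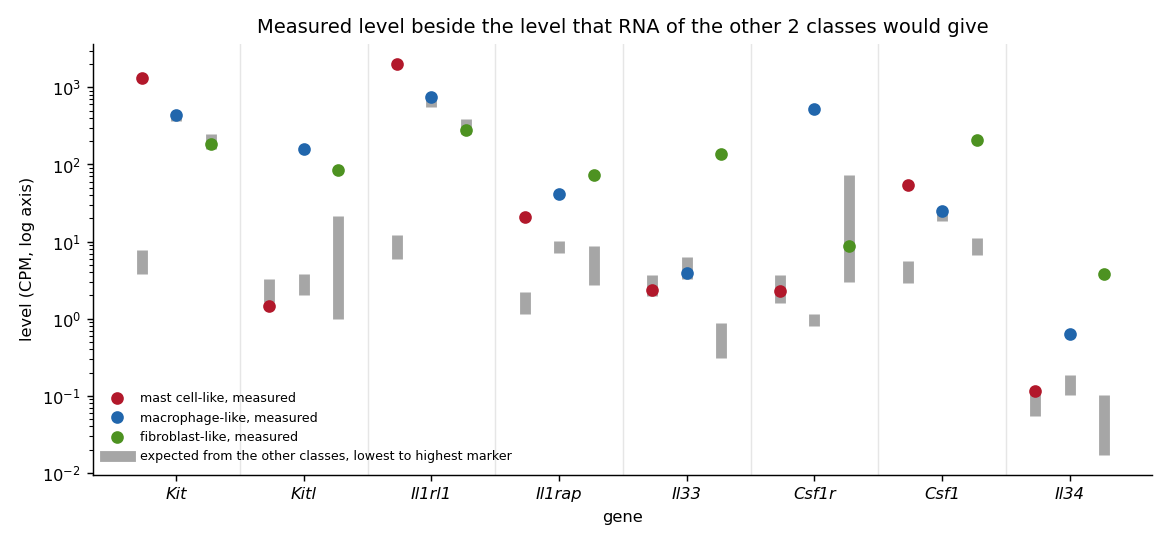
Measured level of each gene (points, CPM, log axis) in the 3 classes, beside the range that RNA of the other 2 classes would give, from the lowest to the highest marker share (grey bars). Kit and Il1rl1 points in the macrophage and fibroblast classes sit at the bars, while Kitl in the macrophage and fibroblast classes, Csf1 in the mast and fibroblast classes and Il1rap in every class sit above them.

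Kit, the receptor for stem cell factor, was at 1316 CPM (1312 to 1320) in the mast class, 443 CPM (435 to 451) in the macrophage class and 182 CPM (180 to 184) in the fibroblast class. The mast class was 2.97-fold above the next. The levels in the other classes were 0.337 and 0.138 of the mast level, inside the ranges of the mast markers, so that Kit could not be separated there from carried-over mast cell RNA. Without mixed sub-clusters Kit was at 120 CPM in the macrophage class, inside the range of the mast markers. In the fibroblast class it was then at 59.4 CPM, or 0.0451 of the mast level, just above the highest mast marker share of 0.0446. It was inside the range expected from both other classes together, which reached 72.6 CPM. That top rested on Mertk, a macrophage marker at 0.116 of its macrophage level there, where the next highest marker was at 0.00359. It also used the macrophage Kit level, itself not separable from mast cell RNA. The same held for cells with the most frequent single tag, at 0.0649 of the mast level against 0.0644. With each cell thinned to 5500 UMIs, 98.9% (98.8% to 99.1%) of the mast class had a Kit UMI, against 49.8% of the macrophage and 41.8% of the fibroblast class. Without mixed sub-clusters the last 2 shares were 27.5% and 22.6%. The macrophage cells left still included sub-clusters 5 and 7 (172 and 26 cells, described below), which held 901 and 177 of their 1888 Kit UMIs. Macrophage sub-clusters 1, 2, 3, 4 and 6 were at 49.2 to 86.7 CPM of Kit. Of the 6336 Kit UMIs of the fibroblast cells left, 2237 were in sub-cluster 4 (322 cells).

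Il1rl1, the ST2 gene, was at 2035 CPM in the mast, 742 CPM in the macrophage and 276 CPM in the fibroblast class, 2.74-fold higher in the first than in the next. In thinned cells an Il1rl1 UMI was found in 99.7% of the mast, 62.3% of the macrophage and 47.5% of the fibroblast class. The level in the fibroblast class was inside the range of mast cell RNA. That in the macrophage class was 1.02 times the top of the range. It was 1.04 times without mixed sub-clusters (212 CPM, against 77.5 CPM in the fibroblast class) and 1.03 times with the most frequent single tag. It was not above the range in the other alternatives. These were 0.951 times at resolution 1.0, 0.965 with at most 5% mitochondrial UMIs, 0.981 with listed genes kept in clustering, 0.985 with all barcodes and 1.01 with doublets kept.

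Il1rap, whose protein pairs with ST2 and with the IL-1 receptor, had another pattern and was present in all 3 classes. It was at 21.1 CPM in the mast, 42.0 CPM in the macrophage and 73.0 CPM in the fibroblast class. These values were 9.50, 4.09 and 8.38 times the top of the range expected from the other classes. In thinned cells 11.3% of the mast, 13.2% of the macrophage and 28.6% of the fibroblast class had a UMI. Of all Il1rap UMIs in kept cells, 61.4% came from the fibroblast and 31.3% from the mast class, while 89.5% of Il1rl1 UMIs came from the mast class.

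Csf1r was at 526 CPM (517 to 535) in the macrophage class, 8.86 CPM in the fibroblast class and 2.32 CPM in the mast class, a 59.4-fold difference between the first 2. Without mixed sub-clusters the macrophage level was 659 CPM and the fibroblast level 6.93 CPM. In the mast class Csf1r was inside the range expected from macrophage RNA. In the fibroblast class it was at 0.0168 of the macrophage level, inside the range only through Mertk, a macrophage marker at 0.136 of its macrophage level there; the next highest marker was at 0.00799. Thinned cells with a Csf1r UMI were 88.2% of the macrophage, 4.13% of the fibroblast and 1.30% of the mast class. The fibroblast UMIs were uneven: the mixed sub-cluster of 135 cells led by Cfd, Adipoq and Cd74 had 81.2 CPM, and the other 5 sub-clusters had 5.53 to 7.76 CPM.

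Kitl, the Kit ligand, was at 158 CPM (153 to 163) in the macrophage class, 84.5 CPM (83.1 to 85.9) in the fibroblast class and 1.46 CPM in the mast class. The level in the macrophage class was 41.6 times the top of the range expected from the other classes, and that in the fibroblast class 3.88 times. In the mast class it was not above that range. The macrophage class was 1.87-fold above the fibroblast class per UMI. Without mixed sub-clusters the 2 levels were 195 and 92.3 CPM, past the 2-fold rule. The fibroblast class, with deeper cells (median 31010 UMIs, against 8435), held more Kitl UMIs in all: 74.7% of the library's Kitl UMIs against 21.8% in the macrophage class. A Kitl UMI was found in 44.0% of the thinned macrophage class and 27.3% of the thinned fibroblast class, whereas the unthinned shares were 54.4% and 60.5%.

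Few cells of the macrophage class carried much of the Kitl. After thinning, the 10% of the macrophage class with the most Kitl UMIs held 55.6% of them, with up to 40 UMIs in a cell, a median of 0 and a ratio of variance to mean of 5.48. The fibroblast class had a like concentration: its top 10% held 58.2% of its Kitl UMIs, with a ratio of variance to mean of 2.03. For Csf1r in the thinned macrophage class, the top 10% held 26.2% and the ratio of variance to mean was 1.90. The mean there was 3.19 UMIs for Csf1r and 0.992 for Kitl, so these 2 genes are not compared at equal means. Without the mixed sub-cluster the Kitl values were 53.3% and 5.57, so the spread within the macrophage class was as large without those cells.

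Il33, the ST2 ligand, was at 139 CPM (137 to 140) in the fibroblast class, 3.91 CPM in the macrophage class and 2.37 CPM in the mast class. The fibroblast class was 35.4-fold above the next, and the other classes were inside the range expected from fibroblast RNA. Of all Il33 UMIs in kept cells, 96.5% were in the fibroblast class. A UMI was found in 38.0% (36.6% to 39.3%) of thinned cells of the fibroblast class, 2.03% of the macrophage and 1.34% of the mast class.

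Csf1 was at 205 CPM (203 to 207) in the fibroblast class, 54.4 CPM (53.5 to 55.2) in the mast class and 25.0 CPM (23.1 to 27.0) in the macrophage class. The level in the mast class was 9.67 times the top of the range expected from the other classes, and 31.3% of the library's Csf1 UMIs were in the mast class, against 66.9% in the fibroblast class. The level in the macrophage class was inside the expected range of 18.7 to 27.1 CPM, and it was 12.3 CPM without the mixed sub-cluster. Thinned cells with a Csf1 UMI were 54.5% of the fibroblast, 24.1% of the mast and 10.3% of the macrophage class. The class highest in Csf1r was thus the lowest of the 3 in Csf1.

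Il34, the second ligand of the Csf1r receptor, was close to the limit of these data, at 3.76 CPM (615 UMIs) in the fibroblast, 0.626 CPM (16 UMIs) in the macrophage and 0.114 CPM (33 UMIs) in the mast class. The fibroblast level was 37.0 times the top of the expected range, and the macrophage level, from its 16 UMIs, 3.36 times. With at most 5% mitochondrial UMIs the macrophage value was 2.02 times and its counting interval reached into the range. A separate cluster of 35 cells, left unnamed and singled out after its value was seen, was at 107 CPM (87.4 to 129) and had Il34 UMIs in 29 of its 35 cells. It held 13.5% of all Il34 UMIs. Its leading genes included Cdh19, and it had 197 CPM of Sox10, a factor of glia and melanocytes, against 0.129 CPM in the other cells. The same 35 cells were at 161 CPM of Il1rap and 90.6 CPM of Kitl, but at 3.05 CPM of Il33 from 3 UMIs.

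Within the mast class, Kit, Il1rl1 and Csf1 varied together over the 6 clusters, as the plot of mast clusters shows. Cluster 0 (5658 cells, with Ctse and Slc6a4 among its leading genes) was at 1788 CPM of Kit, 2458 CPM of Il1rl1 and 71.4 CPM of Csf1. Cluster 4 (3424 cells, with Nrgn and Mrgprb1) was at 1633, 3188 and 120 CPM, and cluster 3 (3978 cells, with Slc6a13 and Mrgprb2) at 1305, 2615 and 66.0 CPM. The other clusters were lower in all 3 genes. Cluster 1 (5126 cells, led by Ctsg, a granule protease, with the replication genes Mcm2 and Mcm5) was at 1095, 1442 and 26.9 CPM, cluster 6 (1708 cells, with the mitosis genes Cenpa and Ccnb2) at 1019, 1248 and 25.8 CPM, and cluster 7 (1401 cells, led by histone genes) at 831, 1243 and 16.4 CPM. Pearson's r over these 6 clusters was 0.977 for Il1rl1 and Csf1, 0.928 for Kit and Csf1 and 0.886 for Kit and Il1rl1, as a description of clusters that share 1 library and differ in depth. Ordered by Kit, none of these 6 clusters had an interval that overlapped that of its neighbour, and by Il1rl1 only clusters 6 and 7 did.

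**Figure D3:**
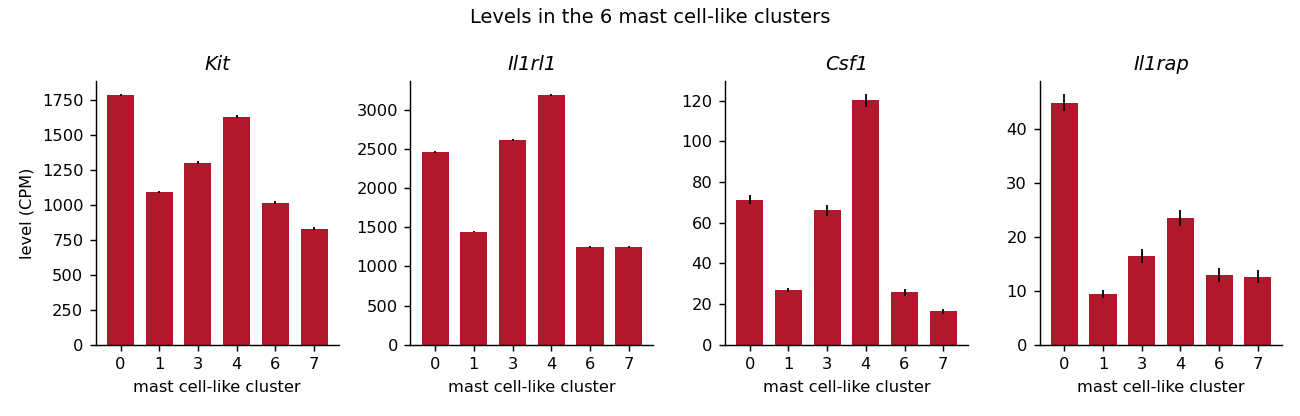
Levels (y axis, CPM of summed UMIs from 0) of Kit, Il1rl1, Csf1 and Il1rap in the 6 mast clusters (x axis, cluster number), with exact Poisson 95% intervals. Clusters 0, 3 and 4 are above clusters 1, 6 and 7 for Kit, Il1rl1 and Csf1, and cluster 0 is highest for Il1rap at 44.9 CPM.

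Depth bears on these differences. Clusters 6 and 7 had median depths of 17249 and 24106 UMIs, against 9647 in cluster 0, 8474 in cluster 3 and 11234 in cluster 4. Counted per cell, Kit was at 20.2, 12.3 and 20.5 UMIs in clusters 0, 3 and 4 and at 16.4, 19.1 and 20.7 UMIs in clusters 1, 6 and 7, so the order by CPM did not hold per cell. Il1rl1 was highest in cluster 4 by both measures, at 40.0 UMIs per cell against 21.6 to 31.0 in the other 5 clusters. Among those 5, cluster 7 was highest per cell, above cluster 0 at 27.8 and cluster 3 at 24.7 UMIs. Csf1 was at 1.51 UMIs per cell in cluster 4, 0.807 in cluster 0 and 0.624 in cluster 3, above the 0.403 to 0.484 of clusters 1, 6 and 7. Il1rap was at 44.9, 16.5 and 23.5 CPM in clusters 0, 3 and 4 and at 9.41 to 12.8 CPM in clusters 1, 6 and 7. Per cell, Il1rap was at 0.507, 0.156 and 0.295 UMIs in clusters 0, 3 and 4. In clusters 1, 6 and 7 it was at 0.141, 0.241 and 0.315 UMIs, so this split did not hold per cell. Its r over the 6 clusters was 0.847 with Kit, 0.709 with Csf1 and 0.696 with Il1rl1. Thinned cells of the mast class with UMIs of both Il1rap and Csf1 were 1.31 times (1.22 to 1.41) as many as the product of the 2 shares.

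A further cluster of 203 cells carried all 7 mast markers but was left unnamed for its low depth (median 3325 UMIs). It was at 1365 CPM of Kit and 2103 CPM of Il1rl1, inside the range of the 6 mast clusters, and at 75.2 CPM (60.5 to 92.4) of Il1rap, above all 6.

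Within the macrophage class, Csf1r was at 245 to 841 CPM and Kitl at 78.8 to 287 CPM over 8 sub-clusters, as the plot of sub-clusters shows. Sub-cluster 2 (405 cells) had 841 CPM of Csf1r and 287 CPM (269 to 306) of Kitl, and sub-cluster 6 (48 cells, with the scavenger receptor gene Marco) had 801 and 280 CPM (233 to 334). Sub-cluster 1 (456 cells, led by Gpnmb, a gene of lipid-handling macrophages) was close in Csf1r by CPM, at 795 CPM, but at 153 CPM (138 to 170) of Kitl. Its median depth was 4933.5 UMIs, against 7883 in sub-cluster 2. Its 456 cells held 1942 Csf1r UMIs, fewer than the 2802 in the 405 cells of sub-cluster 2. Sub-cluster 3 (403 cells) was at 751 CPM of Csf1r and 205 CPM of Kitl. Sub-cluster 4 (358 cells) was at 556 CPM of Csf1r and 180 CPM of Kitl. It was the lowest of the 8 in Lyve1, a marker of resident macrophages, at 71.5 CPM against 191 to 951 CPM in the others. It had 234 CPM of Ccr2, the monocyte chemokine receptor, against 345 CPM in sub-cluster 5 and 17.5 to 153 CPM in the others.

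Sub-clusters with granulocyte genes differed. Sub-cluster 5 (172 cells, led by Camp and Ngp, granule genes of the neutrophil lineage, with 254 CPM of the proliferation gene Mki67) was at 342 CPM of Csf1r, 124 CPM of Kitl and 72.6 CPM of Il1rap. Sub-cluster 7 (26 cells, led by Retnlg and with the neutrophil chemokine receptor gene Cxcr2) was at 245 CPM of Csf1r and 179 CPM (129 to 243) of Il1rap. Both also carried mast cell RNA, at 315 and 775 CPM of Kit, against 49.2 to 86.7 CPM in sub-clusters 1, 2, 3, 4 and 6. Its part in their other values was not tested. The mixed sub-cluster 0 (659 cells) was at 960 CPM of Kit and 1591 CPM of Il1rl1 beside 13845 CPM of the mast protease gene Cma1.

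**Figure D4:**
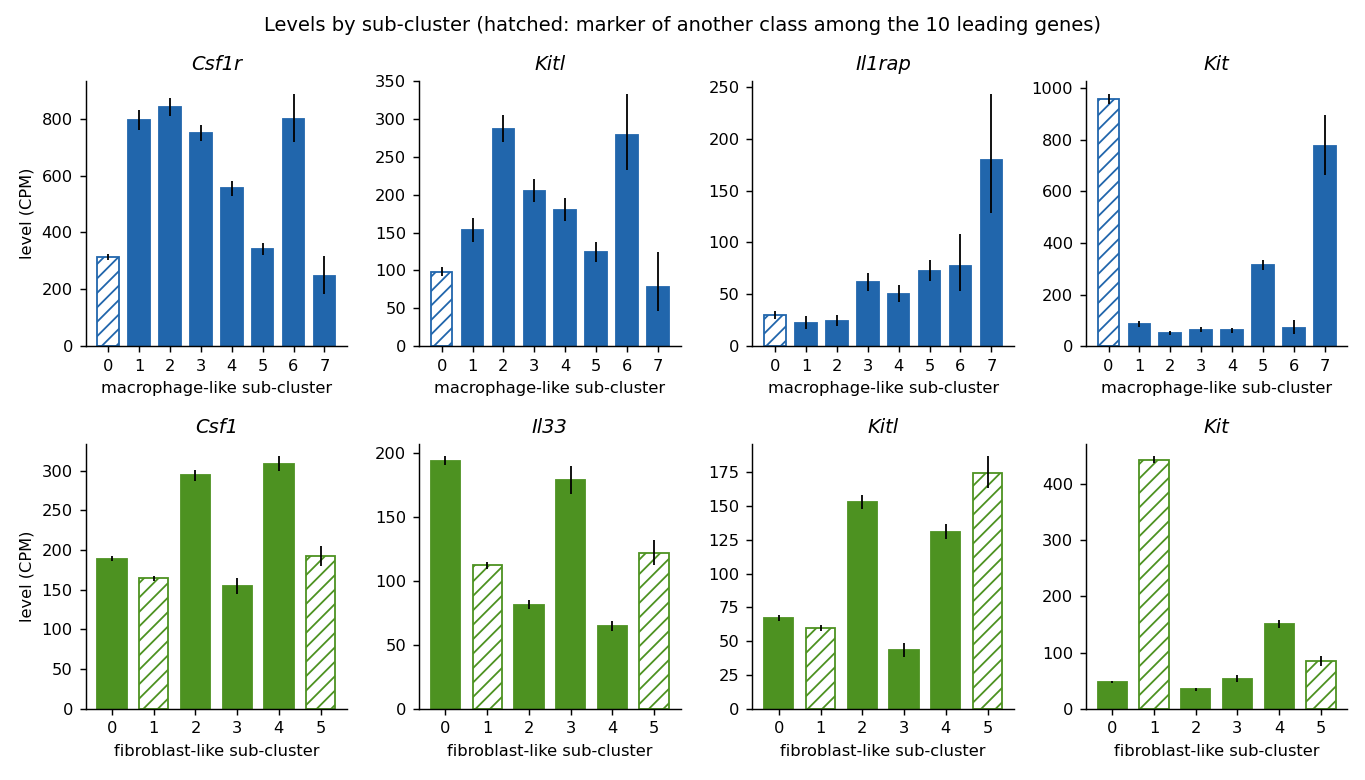
Levels (y axis, CPM of summed UMIs from 0) by sub-cluster (x axis, number) of the macrophage class (upper row: Csf1r, Kitl, Il1rap and Kit) and the fibroblast class (lower row: Csf1, Il33, Kitl and Kit), with exact Poisson 95% intervals. Hatched bars are the mixed sub-clusters, which include the highest Kit bar of each class; Il33 is highest in fibroblast sub-clusters 0 and 3, and lowest in 2 and 4, where Csf1 is highest.

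In the fibroblast class the ligands did not share one pattern. Among the 4 sub-clusters that were not mixed, Il33 was at 194 CPM (191 to 198) in sub-cluster 0 (2052 cells) and 179 CPM (168 to 190) in sub-cluster 3 (529 cells, led by H19), but at 81.5 CPM in sub-cluster 2 (539 cells, with Ptn and Dlk1) and 64.7 CPM in sub-cluster 4 (322 cells, led by mitosis genes). Csf1 ran the other way, at 189 and 154 CPM in sub-clusters 0 and 3 and at 294 and 309 CPM in sub-clusters 2 and 4. Kitl was at 67.3 and 43.4 CPM in sub-clusters 0 and 3 and at 153 and 131 CPM in sub-clusters 2 and 4. The pair with more Il33 by CPM also had more collagen RNA, with 4173 and 3645 CPM of Col1a1 against 1183 and 1496 CPM. Median depths were 30054.5 and 10126 UMIs in sub-clusters 0 and 3, and 38535 and 43304.5 UMIs in sub-clusters 2 and 4. Sub-cluster 3 held 1066 Il33 UMIs in 529 cells, fewer than the 1776 in the 539 cells of sub-cluster 2. The Il33 split by CPM thus did not hold per cell, and Col1a1 was not counted per cell. Il1rap was highest in sub-cluster 0, at 93.8 CPM. Sub-cluster 4, though not called mixed, carried more mast cell RNA than sub-clusters 0, 2 and 3. It was at 151 CPM of Kit, against 34.7 to 53.1 CPM in those 3, and at 2585 CPM of Cma1, against 605 to 902 CPM. The part of this RNA in its other values was not tested.

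In thinned cells, too, Il33 was more frequent in sub-clusters 0 and 3 than in 2 and 4: it was detected in 49.7% and 41.7% of cells in sub-clusters 0 and 3 and in 19.6% and 21.4% in sub-clusters 2 and 4. For Kitl the shares were 23.9% and 16.9% against 43.8% and 41.6%. Thinning sets all cells to 1 depth, so these shares do not count RNA per cell. Over the single cells of this class the relation was weaker: cells with UMIs of both Il33 and Kitl were 0.887 times (0.810 to 0.968) the product of the shares, and 0.908 times (0.819 to 1.00) without mixed sub-clusters. The ratio was 0.959 (0.906 to 1.01) for Csf1 and Il33 and 1.04 (0.969 to 1.11) for Csf1 and Kitl. Of 4913 thinned cells of the fibroblast class, 983 had none of the 3 ligands Csf1, Il33 and Kitl, 44.8% had 1 of them, 30.5% had 2 and 4.66% had all 3. In the macrophage class, those with UMIs of both Csf1r and Kitl were 1.02 times (0.967 to 1.08) the product, where 1.13 is the most that the shares allow.

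The tags moved with the fibroblast ligands. The 2508 cells of the fibroblast class with the Matrigel tag alone were at 99.8 CPM of Kitl, 238 CPM of Csf1 and 149 CPM of Il33. The 1069 cells with no tag were at 53.1 CPM of Kitl, 149 CPM of Csf1 and 182 CPM of Il33, and the 311 cells with the Cafum tag alone at 48.4, 119 and 119 CPM. Those 311 cells carried 7651 CPM of Cma1, against 1208 CPM in cells with the Matrigel tag, and 468 CPM of Kit against 82.9 CPM. Since tag, sub-cluster and carried-over RNA change together, their parts in the ligand levels cannot be told apart. In the mast class, the 4512 without a tag were at 1534 CPM of Kit, 2345 CPM of Il1rl1 and 76.0 CPM of Csf1, against 1277, 1978 and 50.3 CPM in those with the Cafum tag alone. The 4512 cells held 67443 UMIs of Kit and 103114 of Il1rl1. Cells with the Cafum tag alone had 18.6 and 28.8 UMIs per cell, above the 17.8 and 27.6 of the whole mast class. The order of Kit and Il1rl1 by CPM thus did not hold per cell. Levels by tag are per UMI in both classes, and depth was not matched between tags.

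The partners of the 3 receptor systems were followed in lists of known pathway genes, counted by the same 2-fold rule and set beside the shares of 6.88%, 10.3% and 14.7% of all genes. Levels and calls of these lists use all cells of a class and are not corrected for carried-over mast cell RNA. Of 17 Kit signalling genes, all tested, 1 was called for the mast class (Plcg1, a phospholipase, at 65.4 CPM against 25.8 CPM in the macrophage and 28.9 CPM in the fibroblast class), 2 for the macrophage class and none for the fibroblast class. The 2 were the kinase gene Lyn (654 CPM, against 243 CPM in the mast class) and the ubiquitin ligase gene Cbl (126 against 18.0 CPM). Of 10 genes that relay the ST2 signal, 9 were tested and 1 was called, the kinase gene Irak2 for the macrophage class at 81.4 CPM, against 32.1 CPM in the mast class. The adaptor gene Myd88 was at 14.0, 24.1 and 12.7 CPM in the mast, macrophage and fibroblast classes. The median log2 difference of the relay genes was -0.45 for mast minus macrophage and 0.72 for mast minus fibroblast, against 0.12 and -0.0025 over all genes tested. For the Kit signalling genes the same medians were -0.10 and 0.62. The docking protein gene Gab2 was at 430, 686 and 261 CPM in the mast, macrophage and fibroblast classes, and the relay gene Tab2 at 143, 134 and 75.8 CPM.

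Other IL-1 family genes divided the classes. Of 11, 8 were tested and each was called for a class: Il18r1, the IL-18 receptor, for the mast class (124 CPM), Il1r1 and Il1rl2 for the fibroblast class (154 and 29.9 CPM), and 5 for the macrophage class. The 5 were Il1b (148 CPM), Il1a (15.1 CPM), the antagonist Il1rn (58.1 CPM), Il18 (20.5 CPM) and the decoy receptor Il1r2 (22.9 CPM). The proteins of Il1r1 and Il1rl2 also pair with the Il1rap protein, and both genes shared with Il1rap its highest class; Il1r1 was at 4.27 CPM in the mast class. The list's median log2 difference was -3.72 for mast minus macrophage and -2.14 for mast minus fibroblast.

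Enzymes that act on the ligands were as follows. Of 7 protease genes whose products are known to cleave IL-33, 6 were tested and all 6 were called for the mast class; 3 of them (Cma1, Mcpt4 and Tpsb2) are also the markers that named that class, so their calls are not independent of the names. The other 3 were Tpsab1, Ctsg and Gzmb. Cma1 was at 21279 CPM in the mast and 2911 CPM in the fibroblast class, and Gzmb was at 629 and 79.0 CPM. Elane, the neutrophil elastase gene, had no UMI in the mast class, and the other classes were at 0.431 and 0.0489 CPM. Of 5 proteases known to release cell-surface ligands, Adam17 (99.9 CPM) and Mmp9 (119 CPM) were called for the macrophage class and Mmp14 (261 CPM) for the fibroblast class, while Adam10 (99.9, 108 and 72.1 CPM in the mast, macrophage and fibroblast classes) and Adam9 were not called. Of 9 cytokine genes of IL-33-activated mast cells, 6 were tested: Il13 (32.0 CPM) and Il4 (125 CPM) were called for the mast class and Cxcl2 (3539 CPM) for the macrophage class. Il5 was at 0.0104 CPM in the mast class. The chemokine gene Ccl2 was at 1792, 1863 and 347 CPM in the mast, macrophage and fibroblast classes and was not called.

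Around Csf1r, the macrophage factor genes called for the macrophage class included Spi1, which encodes PU.1 (166 CPM), Trem2 (43.6 CPM) and Syk (345 CPM). The adaptor genes Tyrobp and Fcer1g were highest in the mast class, at 2466 and 3634 CPM, against 1692 and 2315 CPM in the macrophage class, and were not called. Of the 3 other IL-34 receptor genes, Sdc1 was called for the fibroblast class (64.8 CPM) and Trem2 for the macrophage class, and Ptprz1 was not tested, at no more than 0.0672 CPM in any class. Of the other 8 class III receptor kinase and ligand genes, 7 were tested. Flt3l was called for the mast class (21.7 CPM), Pdgfb (23.7 CPM) and Pdgfc (169 CPM) for the macrophage class, and Pdgfra (152 CPM), Pdgfrb (175 CPM) and Pdgfd (17.6 CPM) for the fibroblast class. Pdgfra is also a marker that named the class. Kitl and Pdgfc were thus both highest in the macrophage class, while the receptors Kit and Pdgfra were highest in other classes.

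The genes with the pattern most like each member were found over the 9 clusters of 100 cells or more, by Pearson's r of log2(CPM + 1), among 5160 genes with 50 CPM or more in a cluster. These values describe clusters of 1 library and carry no test. They were Elovl7 (0.993), Prkab1 and Gm33370 for Kit, Vwa5a (0.997), Cd300lf and Zfp787 for Il1rl1, and Tlr2 (0.998), Ednrb and Ptpro for Csf1r. For the ligands they were Cpne8 (0.999), Sash1 and Mndal for Kitl, Cthrc1 (0.999), Svep1 and Ace for Il33, and Rnf11 (0.977), Prnp and Emb for Csf1. For Il1rap, Birc2 was at 0.985 and Sipa1l1 and Klhl24 at 0.954 and 0.952. Il34 did not reach the level that this measure needs.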

How the data were processed

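Single-cell RNA of 1 library of colony cells was analysed. The authors deposited raw UMI counts per gene and barcode, with no normalization; Cell Ranger 7.0.0 and genome build mm10 are named in the submitters' processing notes. Intron and strand settings are not given in the sources used here. The deposited features and barcodes give names only. The tag library, a sample of its own, is not analysed here. Counts of 3 tags in the matrix (21.9% of its UMIs) were kept out of gene totals.

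Barcodes with at least 500 genes, 1000 UMIs and at most 10% mitochondrial UMIs were kept (33964). Scrublet in scanpy 1.11.5 called 4726 doublets (13.6%) at a threshold of 0.529, 4679 of which were removed; 46.5% of simulated doublets lay above the threshold, so doublets remain among the 29285 cells. Cells were clustered with leidenalg 0.10.2 at resolution 0.5 on 2000 variable genes and 30 components, without the members and pathway lists. No deposited annotation of cells was used, so the class names were rebuilt from marker lists and may differ from the study's own for that reason. Members, lists and thresholds were chosen with earlier results of these data known. A marker passed at 50 CPM and 4 times its lowest level over clusters of 100 cells or more, and a name needed 3 markers, more than 50% of the list and 50 cells.

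CPM of summed counts carry exact Poisson and shares exact Clopper-Pearson 95% intervals (scipy 1.17.1), for counting error only. Shares come from cells thinned to 5500 UMIs, which left out 1443 cells of the mast, 553 of the macrophage and 187 of the fibroblast class. A tag was called at 2 times its background, the Cafum tag at 1.4 times. Named genes are the 8 members, the 3 genes most like each by cluster pattern, and, in each list, genes called for a class or highest in it. The alternatives varied doublets, filters, resolution, clustering genes, depth, fold, minimum level and choice of cells. The steps were tested on simulated data. Values of 2 further genes are not reported here.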

Additional observations from a re-analysis of the deposited data

How the results depend on the processing

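Each of the 8 genes kept its highest class by CPM under every alternative run (doublets kept, 5% mitochondrial UMIs, all barcodes, resolution 1.0, listed genes kept in clustering, single tag, no mixed sub-clusters, mean over cells). The number of members called 2-fold above both other classes, 5, fell to 3 with called doublets kept, where Kit and Il1rl1 were lost, and to 2 at 4-fold, where Il33 and Csf1r were left; it was 5 to 7 otherwise. Kit in macrophage-like cells ranged from 120 to 699 CPM and Il1rl1 from 212 to 1133 CPM, lowest without mixed sub-clusters and highest with doublets kept. Combinations of gene and class above the range expected from other classes were 12 to 14, which include each gene in its highest class by construction. By share of cells, 1 gene changed its highest class, Kitl, which moved to fibroblast-like cells without thinning. Leaving out mixed sub-clusters was chosen after seeing the data. No paired analysis was possible because 1 library was analysed, so there are no replicates to leave out either. Il34, at 16 UMIs in macrophage-like cells, is limited by depth.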
